A study of Mus musculus with 6 samples.

Results

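The Notch receptors Notch1, Notch2 and Notch3, the ligands Dll1, Dll3 and Jag1 and the Hes factors Hes1, Hes3, Hes5 and Hes6 were followed in mouse embryonic stem cells entering neural differentiation, either depleted of Geminin or not. These 10 genes were taken by name, and every probe set annotated to exactly 1 of them was used, 17 probe sets of 34945 with a single gene symbol (10 of 18193 genes). All cells were derivatives of ES-E14TG2a, an embryonic stem cell line of 129P2 background, kept for 2 days in serum-free N2B27, where such cells adopt neural fate, and each line carried a doxycycline (Dox) inducible shRNAmir, a hairpin in a microRNA backbone, against Geminin. GemKD cultures received Dox (500 ng, with no volume in the labels) and uninduced controls of the same line did not. The GemKD and the control culture of an experiment went to 1 Affymetrix Mouse Genome 430 2.0 array each, in 3 independent experiments (3 GemKD and 3 uninduced arrays). The hairpin was shRNAmir 11 in experiments 1 and 3, and shRNAmir 9, carried by another line, in experiment 2. Dox was not given to cells without a hairpin on the arrays used here, so Dox and knockdown cannot be told apart, and each hairpin is represented by 1 line.

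Notch signalling passes between neighbouring cells. A ligand of the Delta or Jagged type on one cell binds a receptor on the next, ADAM proteases and then gamma-secretase cut the receptor, and the freed intracellular domain enters the nucleus, where it joins the DNA-binding protein Rbpj and a Mastermind coactivator to switch on targets such as Hes1 and Hes5. Hes proteins repress proneural genes and so keep neural progenitors undifferentiated, while embryonic stem cells entering the neural lineage use the same pathway during that transition. Hes6 is the exception in the family: it opposes Hes1 and favours neuronal differentiation.

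The promoters shown are those of Hes5, the textbook neural target of the pathway, and of Hes6 and Dll1, the members that stood furthest from the others in experiment 3. They come from RefSeq (GRCm38.p6), run from 250 bases before to 50 bases from an annotated start, and are written 5′ to 3′ on the strand of the gene; capitals mark TGGGAA, the core letters bound by Rbpj, on either strand.
Hes5, chr4:154960673-154960972, plus strand: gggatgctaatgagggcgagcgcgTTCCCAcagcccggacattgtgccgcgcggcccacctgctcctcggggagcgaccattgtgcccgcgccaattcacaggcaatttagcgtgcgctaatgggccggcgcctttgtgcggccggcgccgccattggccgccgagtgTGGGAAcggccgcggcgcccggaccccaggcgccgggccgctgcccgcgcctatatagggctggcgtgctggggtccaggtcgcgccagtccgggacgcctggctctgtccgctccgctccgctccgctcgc
Hes6, chr1:91413173-91413472, minus strand: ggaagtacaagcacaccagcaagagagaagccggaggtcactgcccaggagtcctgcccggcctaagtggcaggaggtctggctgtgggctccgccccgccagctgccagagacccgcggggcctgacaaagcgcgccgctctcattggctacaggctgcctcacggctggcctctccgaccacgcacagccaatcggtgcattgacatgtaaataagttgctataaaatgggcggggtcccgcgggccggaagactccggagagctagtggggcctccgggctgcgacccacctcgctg
Hes6, chr1:91413989-91414288, minus strand: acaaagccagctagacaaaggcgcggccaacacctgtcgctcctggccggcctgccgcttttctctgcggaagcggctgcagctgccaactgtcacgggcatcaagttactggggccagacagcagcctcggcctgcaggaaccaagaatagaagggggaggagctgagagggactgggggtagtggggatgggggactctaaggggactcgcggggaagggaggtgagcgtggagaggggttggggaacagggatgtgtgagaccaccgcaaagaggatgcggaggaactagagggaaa
Dll1, chr17:15375774-15376073, minus strand: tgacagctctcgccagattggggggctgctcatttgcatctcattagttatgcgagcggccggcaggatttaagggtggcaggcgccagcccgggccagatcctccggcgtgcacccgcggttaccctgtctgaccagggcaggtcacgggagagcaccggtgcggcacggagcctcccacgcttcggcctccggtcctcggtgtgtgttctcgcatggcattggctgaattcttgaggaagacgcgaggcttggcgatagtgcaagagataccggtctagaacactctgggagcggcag
Dll1, chr17:15376883-15377182, minus strand: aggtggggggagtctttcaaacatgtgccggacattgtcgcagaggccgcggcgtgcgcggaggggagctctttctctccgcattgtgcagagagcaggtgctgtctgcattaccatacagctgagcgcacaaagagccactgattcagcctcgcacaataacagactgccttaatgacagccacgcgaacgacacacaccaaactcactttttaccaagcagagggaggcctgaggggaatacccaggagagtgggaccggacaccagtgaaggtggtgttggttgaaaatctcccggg
Hes5 held TGGGAA at 2 places, with first bases at -226 and -82 from the start and in opposite orientation, and was the 1 promoter of 10 with any. The other 9 promoters, of Hes6, Dll1, Dll3, Jag1, Notch1, Notch2 and Notch3, had none within these windows, and 25.6% of 32851 mouse promoters of the same length hold the letters at least once. CACNAG, the N-box read by Hes repressors, was present on either strand in 5 of the 10 promoters (42.5% of all). It had 2 matches in the Hes6 promoter at chr1:91413173-91413472 and 1 in the Dll1 promoter at chr17:15376883-15377182. The Hes5 promoter held no CACNAG, so no promoter here had both motifs. Of the 10 members 8 had an entry; Hes1 and Hes3 are named only.

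The arrays had median signals between 59.3 and 60.9, and signals are linear probe set intensities. Gmnn, which encodes Geminin, kept 27.6%, 48.0% and 36.7% of the control signal in GemKD of experiments 1, 2 and 3 (exact two-sided permutation p = 0.1, the smallest that 3 arrays against 3 allow), and was lower than its control each time. Experiment 3 stood apart from the others in both arms: for 2.39% of 14188 genes both of its arrays lay outside the range of the 4 others and the means differed by at least 2-fold, on the scale of log2(signal + 16) that all log2 values here use. The neural progenitor markers Sox1, Sox2, Pax6, Nes, Zic1 and Fabp7 (6 of 6 above the filter on dim genes) summed to a signal of 9335 to 9721 in the arrays of experiments 1 and 2 and 6220 to 6677 in those of experiment 3. Within that list, by the brightest probe set, 4 genes lay below the other arrays in experiment 3, while Fabp7 lay above (log2 difference 0.97) and Nes overlapped (0.10). A dimmer Nes probe set lay above, with 221 and 265 in experiment 3 against 64.7 to 79.4 in the other arrays (log2 difference 1.60). Other dimmer probe sets above the filter gave -1.41 for Sox1, -0.85 for Zic1 and -1.22, 0.05 and -2.09 for Pax6. Naive pluripotency markers (5 of 5 above the filter) summed to 6463 to 8343 against 2670 to 3043, and primed epiblast markers (5 of 5) to 20979 to 23385 against 27742 to 28031. Such sums weigh bright genes most. Sox2 gave 5033 to 6009 of the neural progenitor sum. Of the primed epiblast sum Dnmt3b gave 9284 to 11069, and Pou5f1, which overlapped in experiment 3 (-0.03), gave 7338 to 7711. Between GemKD and uninduced arrays the naive markers had log2 fold changes above 0 for 5 of 5, beside 51.2% of all genes. Of these 5, 0 passed, with Nanog at 0.45 (limma adjusted p = 0.9998, and 0.0589 with the experiment as a block). The neural progenitor markers were also above 0 for 6 of 6 (0.02 to 0.17). Above 0 were 2 of 4 neuronal, 2 of 5 primed epiblast and 0 of 2 proneural markers. In experiments 1 and 2 alone, with the block, Nanog rose by 0.56 (limma adjusted p = 0.000205) and the proneural gene Neurod1 fell by 0.59 (limma adjusted p = 0.00563). The primed marker Pou3f1 fell by 0.30 (limma adjusted p = 0.034). Experiment 3 was left out with its values known, and its ratios for Nanog, Neurod1 and Pou3f1 were 0.23, 0.22 and 0.02. A dimmer Neurod1 probe set gave 0.11 in experiment 3. A dimmer Pou3f1 probe set was lower in every experiment, with -0.08, -0.31 and -0.12 in experiments 1, 2 and 3. The fit to experiments 1 and 2 alone has 1 residual degree of freedom, so its p-values rest on the spread pooled over genes. The labelled neurectoderm thus carried pluripotency markers on all arrays, as well as neural ones. Endoderm markers summed to 188.3 to 278.4 over all arrays and trophoblast markers to 137.6 to 200.5, with Gata3 below the filter. The genes in these sums were dim, each averaging from 32.1 (Krt7) to 89.0 (Hand1) over the arrays, beside array medians of 59.3 to 60.9. Such sums do not show that these lineages were present. Mesoderm markers summed to 600.9 to 791 (Mixl1 and Kdr below the filter) and neuronal markers to 1940 to 2301 (Dcx below the filter). The part of these cell states in the values that follow was not tested, and in RNA of whole cultures fewer cells of a type and less RNA per cell cannot be told apart.

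No receptor differed between GemKD and uninduced cultures by more than the spread between arrays. Notch1, the receptor most used by early neural progenitors, had signals of 575, 576 and 621 in the uninduced arrays of experiments 1, 2 and 3 and of 546, 567 and 808 in the GemKD arrays (590.5 ± 26.4 and 641 ± 146, SD, n = 3). The GemKD array of experiment 3 was the highest and the other 5 lay close together, so the groups overlapped. Its log2 fold change was 0.09 (SE 0.16, limma adjusted p = 0.9998), with ratios of -0.07, -0.02 and 0.37 in experiments 1, 2 and 3. A dimmer probe set of Notch1, at signals of 148 to 221, had ratios of 0.04, 0.02 and 0.20, so both probe sets gave their largest ratio in experiment 3.

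Notch2, a receptor broadly present in the embryo, had signals of 1138, 1197 and 1577 in the uninduced arrays and 1335, 1350 and 1531 in the GemKD arrays. Its log2 ratios were 0.23 and 0.17 in experiments 1 and 2 and -0.04 in experiment 3, and a dimmer probe set (236 to 351) gave 0.27, 0.35 and -0.003. GemKD was thus above its own control in both lines of experiments 1 and 2 by both probe sets, and not in experiment 3. Over all arrays the log2 fold change was 0.12 (SE 0.13, limma adjusted p = 0.9998), and with experiments 1 and 2 alone, the experiment as a block, it was 0.20 (SE 0.06, limma adjusted p = 0.261).

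Notch3, which in other tissues is known from smooth muscle and progenitor cells, had signals of 602, 733 and 608 in the uninduced arrays and 699, 668 and 611 in the GemKD arrays, which overlapped (log2 fold change 0.03, SE 0.11, limma adjusted p = 0.9998). Its other probe set lay between 301 and 371. The log2 ratios of these probe sets differed in sign in experiments 2 and 3, with -0.13 and 0.01 for the brighter against 0.09 and -0.21 for the dimmer.

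**Figure D1:**
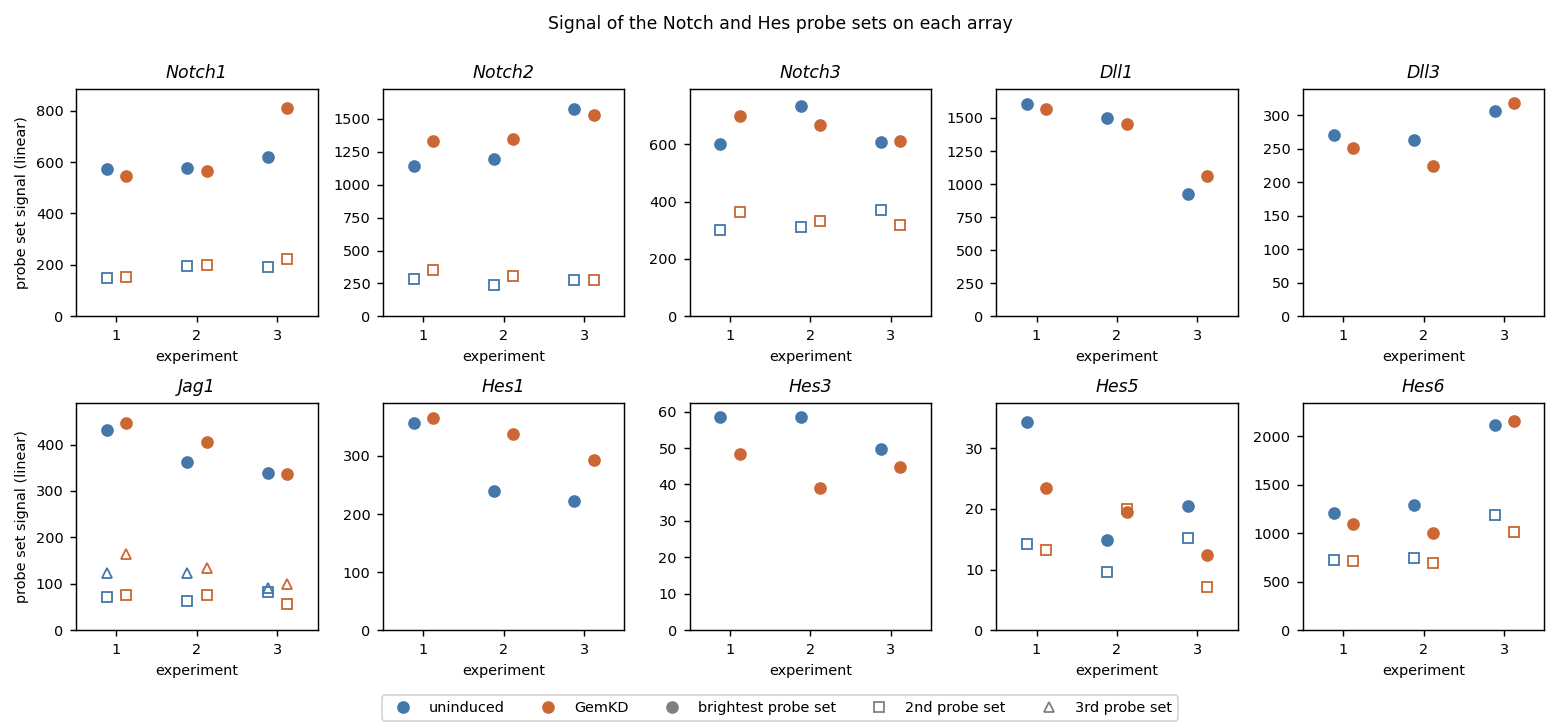
Linear probe set signal (vertical axes, each from 0) on the 6 arrays, by experiment (horizontal axes), with uninduced arrays in blue and GemKD arrays in orange; filled circles are the brightest probe set of a gene and open symbols its others. Hes6 lies highest and Dll1 lowest in both arrays of experiment 3, while GemKD and uninduced arrays overlap for every gene but Hes3.

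Among the ligands no member separated GemKD from control. Dll1, the Delta ligand with which differentiating cells activate Notch in their neighbours, had signals of 1603, 1503 and 924 in the uninduced arrays and 1569, 1457 and 1063 in the GemKD arrays (1343 ± 367 and 1363 ± 266, SD, n = 3). The SD came from experiment 3, whose arrays were both far below the other 4, and within experiments the log2 ratios were -0.03, -0.04 and 0.20. The log2 fold change was 0.04 (SE 0.23, limma adjusted p = 0.9998). Dll3, a divergent Delta protein that inhibits Notch within its own cell, had 271, 263 and 306 in the uninduced and 252, 225 and 319 in the GemKD arrays, with a log2 fold change of -0.09 (SE 0.15, limma adjusted p = 0.9998) and ratios of -0.10, -0.21 and 0.05.

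Jag1, a ligand of the Jagged type, was read by 3 probe sets. The brightest had 432, 362 and 340 in the uninduced and 447, 405 and 336 in the GemKD arrays (log2 fold change 0.06, SE 0.15, limma adjusted p = 0.9998). The other probe sets, at 91 to 163 and 57.3 to 82.7, had log2 fold changes of 0.19 and -0.05. In experiment 3 these 3 probe sets gave log2 ratios of -0.02, 0.11 and -0.43, which share no direction.

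By the brightest probe set, the Hes factors held the members with the same direction in every experiment. Hes1, the Notch target and repressor shared by embryonic stem cells and neural progenitors, had signals of 356, 239 and 222 in the uninduced arrays and 366, 338 and 293 in the GemKD arrays (272 ± 72.9 and 332 ± 36.3, SD, n = 3). It was higher in GemKD in 3 of 3 experiments, by log2 ratios of 0.04, 0.47 and 0.38, but the control of experiment 1 was above 2 of the 3 GemKD arrays. The log2 fold change of 0.30 (SE 0.19, limma adjusted p = 0.9998) did not pass, nor did it with the experiment as a block (SE 0.10, 95% interval 0.08 to 0.52, unadjusted p = 0.0114, limma adjusted p = 0.912). Hes1 was read by a single probe set.

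Hes3, a repressor known from the early neural plate, was dim, with signals of 58.4, 58.5 and 49.7 in the uninduced arrays and 48.3, 39.1 and 44.8 in the GemKD arrays. All 3 GemKD arrays lay below all 3 controls, with ratios of -0.21, -0.44 and -0.11 and a log2 fold change of -0.25 (SE 0.14, limma adjusted p = 0.9998). Such a separation was found for 1 of the 10 members and for 4.32% of all genes in either direction. Hes3 was also read by a single probe set, and its lowest control (49.7) and highest GemKD array (48.3) were close.

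Hes5, the target read as Notch activity in neural progenitors, was close to the lower end of the measurable range. Its brighter probe set had 34.3, 14.9 and 20.4 in the uninduced and 23.4, 19.6 and 12.4 in the GemKD arrays, against a filter limit of 19.5, and its average (20.2) was just above that limit. The other probe set, with a mean of 13.2, did not pass. No order can be read among these values, and the log2 fold change of -0.17 (SE 0.23, limma adjusted p = 0.9998) has ratios of -0.35, 0.20 and -0.36.

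Hes6, the family member that opposes Hes1, had signals of 1209, 1295 and 2112 in the uninduced arrays and 1093, 1002 and 2160 in the GemKD arrays, and a second probe set had 724, 740 and 1187 against 708, 694 and 1014. Ratios of the brighter probe set were -0.14, -0.37 and 0.03, those of the second -0.03, -0.09 and -0.22, so that 5 of the 6 were below 0. The log2 fold change of -0.16 (SE 0.32, limma adjusted p = 0.9998) was small beside the spread between experiments. With the experiment as a block the SE was 0.07 (95% interval -0.31 to -0.01, unadjusted p = 0.0402, limma adjusted p = 0.996). The brighter probe sets of Hes5 and Hes6 (suffix _x_at) and of Notch3 (suffix _s_at) carry suffixes that Affymetrix gives to probes shared with other transcripts. Their signal may include such transcripts.

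Across the family 0 of 10 members passed in limma (adjusted p under 0.05, two-sided), where 0.00705% of all genes did, and 0 of the 10 had an unadjusted p under 0.05, beside 0.867% of all genes. That fit, without the block, did not call the knockdown target Gmnn either (log2 fold change -1.44, limma adjusted p = 0.332). A member without a call there may therefore still have changed. With the experiment as a block Gmnn was called (limma adjusted p = 1.95e-06). Taken as separate features, 0 of 16 member probe sets above the filter passed, beside 0.00317% of all probe sets without the block and 0.00952% with it. With the experiment as a block 0 of 10 passed, beside 0.0352% of all genes, and 2 had an unadjusted p under 0.05, beside 4.74% of all genes. The median log2 fold change of the members was 0.04, and that of all genes was 0.002. Blocked 95% intervals lay wholly within 1.5-fold for 8 members, and reached -0.59 for Hes3 and -0.61 for Hes5. Without the block the intervals of all 10 members lay within 2-fold. Taking the direction of the brightest probe set alone, 1 member was higher in all 3 experiments (12.2% of all genes) and 1 was lower (11.7% of all genes), Hes1 and Hes3. Signs matched between experiments 1 and 2 for 8 members (55.6% of all genes), and for 6 of these, Notch1, Notch2, Dll1, Dll3, Jag1 and Hes6, experiment 3 had the opposite sign (31.7% of all genes). Among those 6 the ratios of the brightest probe sets in experiment 3 ran from -0.04 to 0.37. A dimmer probe set kept its sign in all 3 experiments for Notch1 (0.04, 0.02 and 0.20), Jag1 (0.36, 0.11 and 0.11) and Hes6 (-0.03, -0.09 and -0.22). When experiment 3 was left out of the blocked comparison, 0 of 10 members passed, beside 0.204% of all genes (0.479% without experiment 1 and 0.183% without experiment 2, again with 0 members), and Hes6 had the smallest unadjusted p (log2 fold change -0.25, SE 0.07, limma adjusted p = 0.17). The hairpin interaction rests on 1 pair of cultures with shRNAmir 9, so it cannot show whether the hairpins acted alike on the members. Its terms, shRNAmir 9 minus shRNAmir 11, ran from -0.31 for Hes6 (SE 0.15) to 0.56 for Hes5 (SE 0.47).

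**Figure D2:**
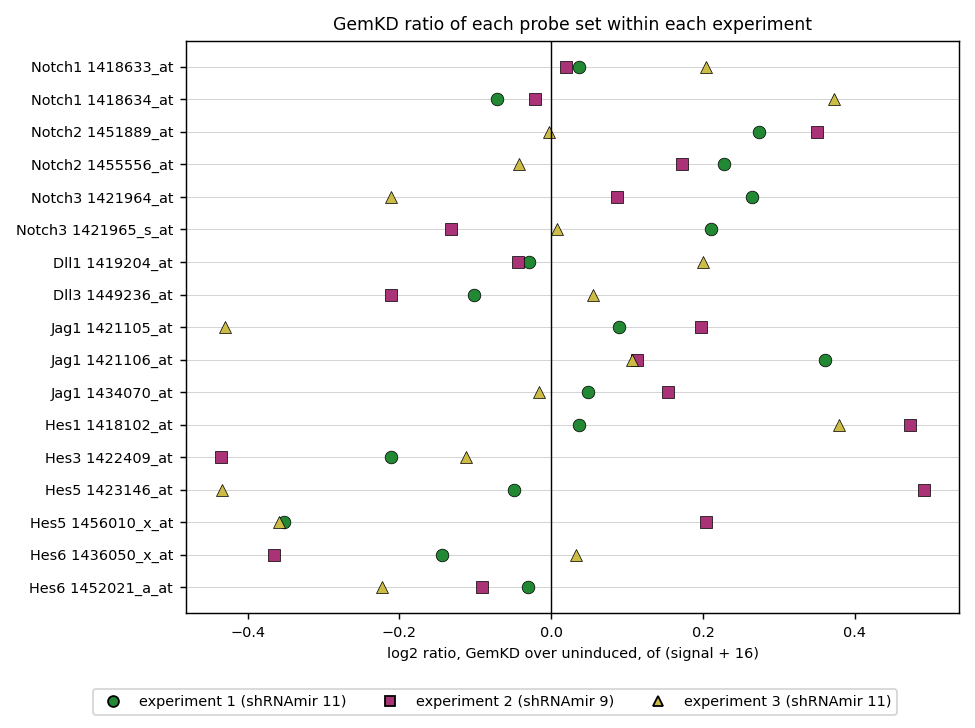
Log2 ratio of GemKD over uninduced (horizontal axis) for each of the 17 probe sets (rows) in experiments 1 (circles), 2 (squares) and 3 (triangles). Hes1 lies right and Hes3 left of 0 in every experiment, while for Notch2 both probe sets lie right of 0 in experiments 1 and 2 and at or left of 0 in experiment 3.

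**Figure D3:**
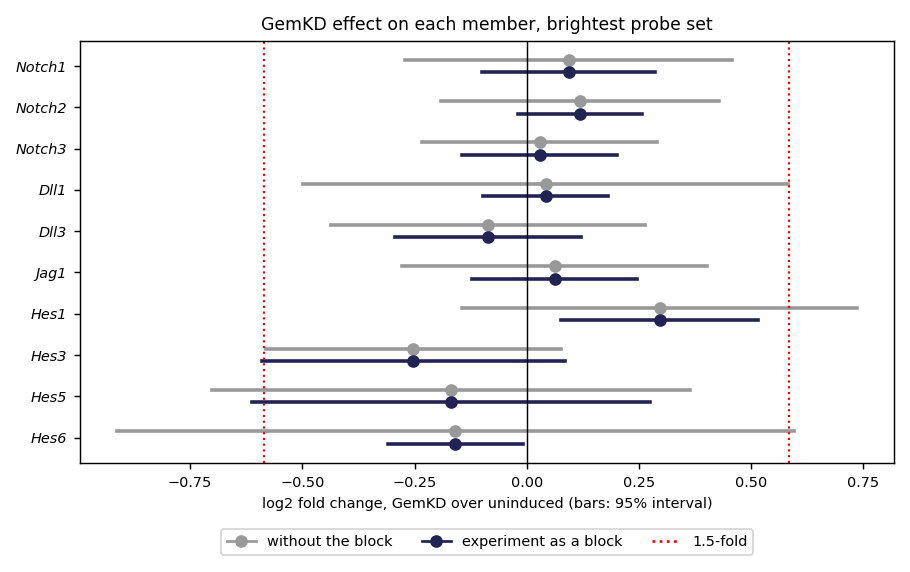
Log2 fold change of GemKD over uninduced with its 95% interval for the 10 members (brightest probe set), without the block in grey and with the experiment as a block in dark blue; dotted lines mark 1.5-fold. Blocked intervals stay within the dotted lines for 8 members and cross the left one for Hes3 and Hes5.

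Experiment 3 was then set beside experiments 1 and 2, as a description without a test, since it is 1 experiment and was singled out with its values known. Its 2 arrays lay outside the range of the other 4 for 6 members, above for Notch1, Notch2, Dll3 and Hes6 (19.7% of all genes) and below for Dll1 and Jag1 (31.0% of all genes). For Notch3, Hes1, Hes3 and Hes5 they overlapped the others. At 2-fold 0 of 10 members were apart (2.39% of all genes). At 1.5-fold Hes6 was above, 1 of 10 members beside 2.78% of all genes, and Dll1 was below, 1 of 10 beside 6.15%.

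Hes6 averaged a signal of 1150 over the 4 arrays of experiments 1 and 2 and 2136 over those of experiment 3, a log2 difference of 0.89 (1.85-fold). The difference was 0.75 among uninduced arrays and 1.03 among GemKD arrays, against a range of 0.37 within the 4 arrays of experiments 1 and 2. Experiments 1 and 2 were alike (1151 and 1148), and the second probe set differed by 0.60, so both probe sets placed experiment 3 above the others. Of all genes 3.22% had a larger difference in either direction. The proneural markers summed to 830.7 to 961.9 in experiment 3 and 414.6 to 705.5 in the other arrays (2 of 4 above the filter), nearly all of it from Neurod1 (log2 difference 0.74), while Neurog2 overlapped. Their part in the Hes6 difference was not tested. Its closest genes by Pearson's r of log2 values over the 6 arrays were Tex15 (0.9996), Itm2a (0.9993) and Pus10 (0.998), with differences of 0.96, 1.16 and 0.32 in experiment 3. These arrays share 3 experiments in pairs, and the likeness rests mainly on experiment 3.

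Dll1 averaged 1533 in experiments 1 and 2 and 993 in experiment 3, a log2 difference of -0.62. It was -0.74 among uninduced and -0.50 among GemKD arrays, against a range of 0.14 within experiments 1 and 2, and the order of levels was experiment 1 (1586), experiment 2 (1480) and experiment 3. Of all genes 8.06% had a larger difference. The step from experiment 1 to 2 was -0.10, and both arrays of experiment 1 (1569 and 1603) lay above both of experiment 2 (1457 and 1503). Its closest genes over the 6 arrays were Caprin2 (r = 0.999), Nprl2 (0.999) and Cdk16 (0.998), with -0.77, -0.44 and -0.43 in experiment 3. Hes5, which also ranged widely over the arrays, was most like 1700001G11Rik, Prmt8 and Smim31 (r = 0.982, 0.975 and 0.967), at signals too low to order.

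Smaller differences were seen among the receptors and the other ligands. Notch1 differed by 0.32, with 0.11 among uninduced and 0.53 among GemKD arrays, so that most of it lay in the GemKD array. Its dimmer probe set overlapped the other arrays (0.24). Notch2 differed by 0.31 and its dimmer probe set by -0.07, and the correlation between these probe sets over the 6 arrays was 0.15. For Notch3, at -0.14, that correlation was 0.06. Dll3 was higher by 0.29, in the opposite direction to Dll1. Jag1 differed by -0.27, and by -0.45 and -0.03 in its dimmer probe sets, of which the first also lay below all other arrays. Hes1 differed by -0.31 with overlap, since the GemKD array of experiment 3 (293) lay above the control of experiment 2 (239), and Hes3 differed by -0.08. Of the 6 members with several probe sets, Notch1, Jag1 and Hes6 had every probe set above the filter on the same side of 0.

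**Figure D4:**
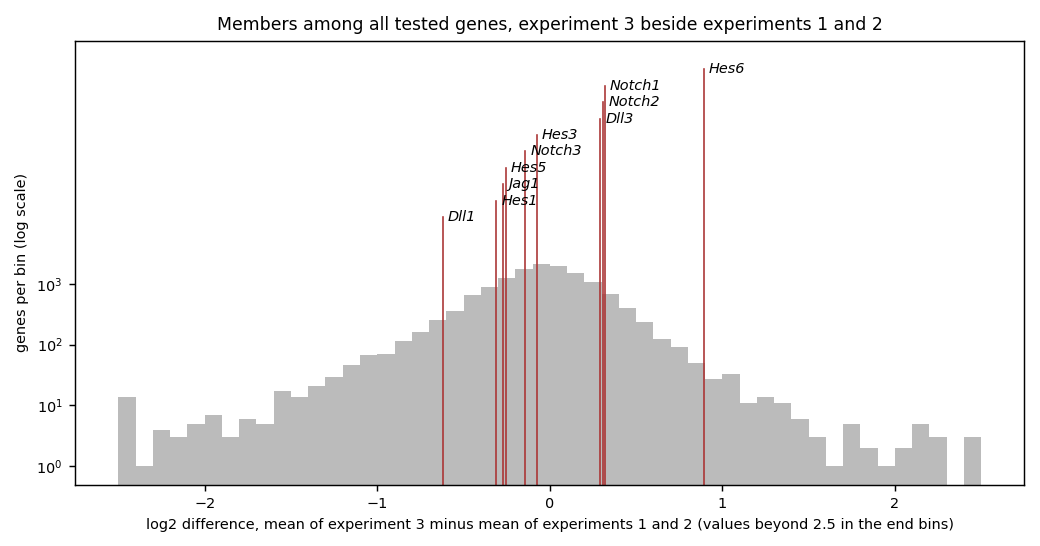
Distribution over 14188 genes of the log2 difference between experiment 3 and experiments 1 and 2 (horizontal axis; genes per 0.1-wide bin on a log axis), with a red line at the value of each member; line heights carry no value. Hes6 at 0.89 and Dll1 at -0.62 lie toward the tails, and the other 8 members lie between -0.31 and 0.32.

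The rest of the pathway was read from a list of 51 genes, of which 48 had a probe set with a single symbol and 46 passed the filter on dim genes. In GemKD against uninduced 0 of the 46 passed in limma in either direction, with or without the block, and 1, Rbpj, had a blocked unadjusted p under 0.05 (log2 fold change 0.11, blocked SE 0.05, limma adjusted p = 0.996), where 4.74% of all genes did. The median log2 fold change was 0.03. The 6 tested targets Hes2, Hes7, Hey1, Hey2, Heyl and Nrarp all had values below 0, between -0.21 and -0.04 with a median of -0.14, where 48.8% of all genes were below 0. With the experiment as a block, 4 of these 6 turned above 0 when 1 experiment was left out: Hes7 without experiment 1 (0.020), Hes2 and Hey2 without experiment 2 (0.28 and 0.079) and Heyl without experiment 3 (0.050). The lowest were Hey1 (-0.21, SE 0.15), a Hes-related repressor, Nrarp (-0.18, SE 0.17), a feedback inhibitor of Notch, and Hey2 (-0.15, SE 0.18), each with limma adjusted p = 0.9998, and the 5 targets other than Nrarp had signals of 13.7 to 49.2. Among the other roles the largest values were those of the atypical ligands Dlk2 and Dlk1 (0.20 each) and Dner (0.18), the convertase Furin (0.20), which trims the receptor precursor, the gamma-secretase subunit gene Aph1b (0.15), the Groucho-type corepressors Tle2 (0.17) and Tle3 (0.14), the ubiquitin ligases Dtx4 (-0.13) and Dtx3 (0.12), Rfng (-0.12), which modifies receptor sugars, and Spen (0.12), a corepressor bound by Rbpj.

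In experiment 3, 4 of 6 genes of the nuclear complex and 4 of 8 genes of receptor processing lay below all other arrays, beside 31.0% of all genes and 14 of the 46 pathway genes. Rbpj, through which all canonical Notch output runs, averaged 3371 in experiments 1 and 2 and 2371 in experiment 3 by its brightest probe set, a log2 difference of -0.50. Its other probe sets gave -0.86 and -0.95, and all 3 lay below every array of experiments 1 and 2. The coactivator Maml1 differed by -0.50 and Spen by -0.40, and Snw1 by -0.10. The proteases Adam10 (-0.60) and Adam17 (-0.39), which make the first cut in the receptor, were below as well, although the dimmer probe sets of Adam10 above the filter gave -0.77 and 0.10. Numb (-0.58) and Numbl (-0.33), which antagonise Notch in dividing progenitors, and the corepressor Tle4 (-0.45) were on the same side, and a dimmer probe set of Numb gave 0.24.

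On the high side Dtx1, a Notch-binding ubiquitin ligase, had the largest difference, with signals of 624.6 and 690.8 in experiment 3 against 267.5 to 296 in the other arrays (log2 difference 1.18). It was the 1 pathway gene of 46 past 2-fold, where 2.39% of all genes were, and its second probe set, at 173 to 190, differed by -0.08. Next were Tle3 (0.61), Hes2 (0.55, at signals of 13.7 to 46.6), Notch4 (0.48, with overlap), Nrarp (0.36), Dlk1 (0.35, with overlap), the fringe glycosyltransferase Lfng (0.33) and Dlk2 (0.30). In all 9 of the 46 genes were above and 14 below the other 4 arrays, beside 19.7% and 31.0% of all genes, and at 1.5-fold 2 were above and 1 below, beside 2.78% and 6.15%.

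**Figure D5:**
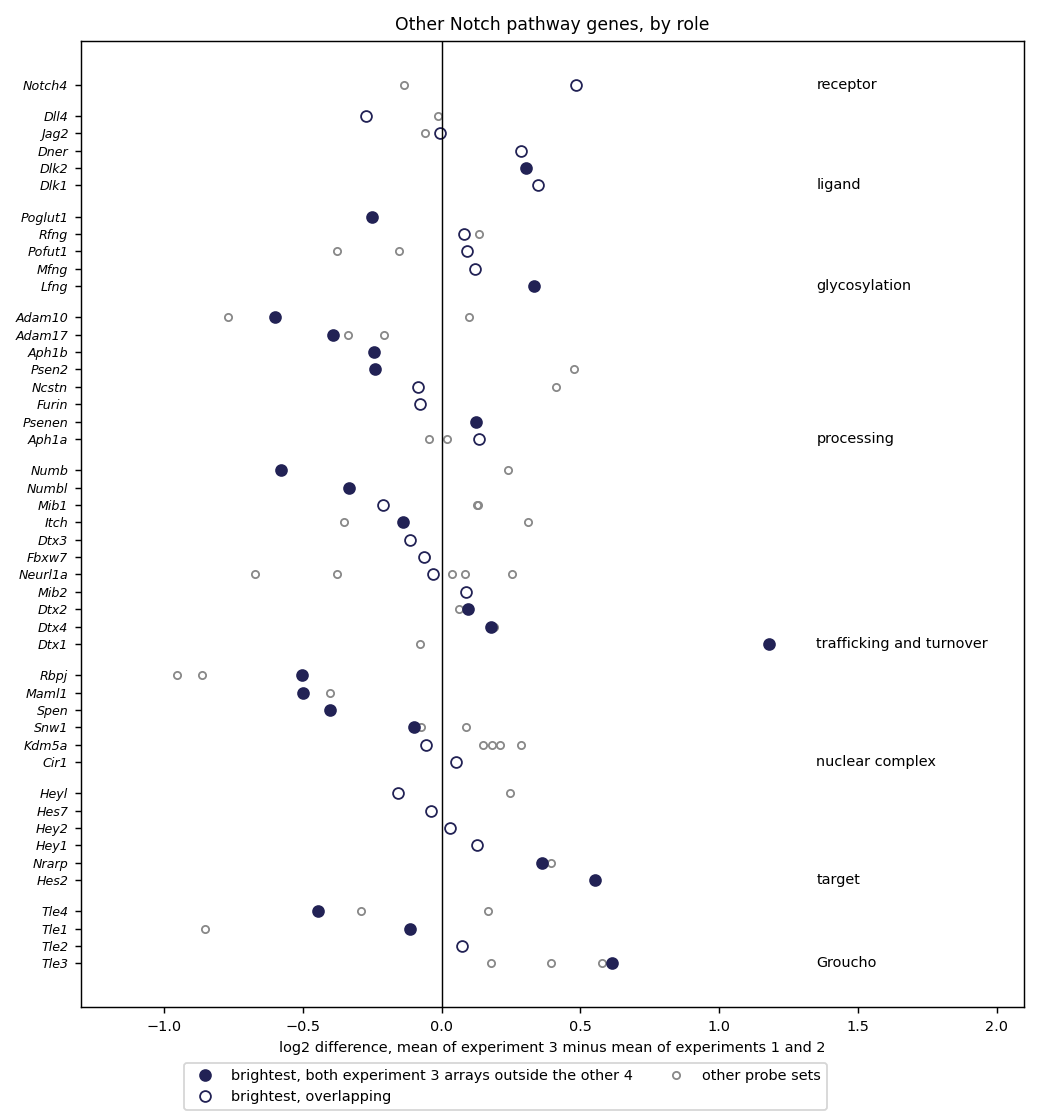
Log2 difference between experiment 3 and experiments 1 and 2 (horizontal axis) for 46 other Notch pathway genes grouped by role; large symbols are the brightest probe set, filled where both arrays of experiment 3 lay outside the other 4, and small open symbols are further probe sets. Dtx1 lies furthest right at 1.18 with its second probe set near 0, and the 3 probe sets of Rbpj lie at -0.50, -0.86 and -0.95.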

How the data were processed

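The authors deposited 1 linear intensity per probe set and array for 45037 probe sets; how these intensity values were summarised, background-corrected and normalized is not given here by any source used. Array medians lay between 59.3 and 60.9, and no further normalization was applied. Probe sets with exactly 1 symbol in the platform annotation were used (34945; 932 had several and 9160 none). Symbols were checked by Entrez identifier against RefSeq genes of GRCm38.p6, which changed 0, and 204 probe sets had no match there. The probe set with the highest mean log2(signal + 16) stood for a gene, and genes above the 30th percentile of that mean (a signal of 19.5) were tested, 14188 in all.

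Comparisons ran in limma 3.58.1 (R 4.3.3): lmFit, then eBayes with a trend on intensity, two-sided, with Benjamini-Hochberg adjustment over all genes. The main comparison had no block, and an alternative took the experiment as one. Per the labels, each experiment was independent and had a control of its own, and this pairs the arrays. After subtraction of the group mean, the arrays of experiments 1, 2 and 3 correlated by 0.487, 0.474 and 0.716. P-values measure the spread between these cultures. Experiment 3 was called apart when both of its arrays lay outside the other 4 and the means differed by at least 2-fold. The hairpin interaction leaves 1 residual degree of freedom. The code was tested on simulated data.

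The members, the pathway list and the markers were chosen with earlier results of these data known. Named pathway genes were up to 3 per role by size of the GemKD difference and up to 8 in each direction by the experiment 3 difference, and the genes most like a member were taken for the 3 members of largest range over the arrays. Some listed genes are not reported here, and the pathway genes Rbpjl and Maml2 and the proneural marker Neurog1 did not pass the filter. The number of arrays limits the precision.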

Additional observations from a re-analysis of the deposited data

Results flagged for a closer look

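Less Gmnn was lost in experiment 2, the only pair of cultures with shRNAmir 9, than in experiments 1 and 3 with shRNAmir 11. The ratios of experiments 1 and 3 (-1.84 and -1.44) also lay apart from each other. The hairpin interaction leaves 1 residual degree of freedom, so its SE rests on the spread pooled over genes. The log2 fold change of Gmnn was 0.59 higher (SE 0.13, limma adjusted p = 0.00229 for the interaction with the experiment as a block) with shRNAmir 9 in experiment 2 than with shRNAmir 11 in experiments 1 and 3, so less of it was lost with shRNAmir 9, where the ratio was -1.05 against -1.84 and -1.44. Of 14188 genes 42 were called in that interaction, and each hairpin was in its own line, so hairpin and line cannot be told apart. They included 0 of the 10 Notch and Hes members and 0 of the 46 other pathway genes.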

How the results depend on the processing

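No member and no other pathway gene was called under any of the alternatives run: a block on experiment, a hairpin covariate, quantile normalization, no filter or a stricter one (50th percentile), averaging the probe sets of a gene, every probe set as a feature, a pseudocount of 1 or 64, no intensity trend, and leaving out each array or each experiment. The count of genes called overall was 1, against 5 with the replicate block and 0 without the intensity trend, and ran from 0 to 68 when arrays or experiments were left out. Gmnn had -1.44 in the main comparison (adjusted p = 0.332) and -1.44 with the replicate block (adjusted p = 1.95e-06), and from -1.64 to -1.24 when arrays or experiments were left out, where the blocked fits passed; with 1 residual degree of freedom their p-values rest on the pooled spread. The replicate block changed no call of a member. Leaving out an array or an experiment moved the log2 fold change from -0.082 to 0.19 for Notch1, -0.062 to 0.12 for Notch3 and -0.20 to 0.21 for Dll1. It moved from -0.22 to 0.018 for Dll3, -0.027 to 0.17 for Jag1, -0.36 to 0.026 for Hes5 and -0.50 to 0.090 for Hes6. The sign of these 7 thus turned in at least 1 such fit, while Notch2 (0.03 to 0.26), Hes1 (0.17 to 0.49) and Hes3 (-0.32 to -0.16) kept theirs. Fits without 1 array had no block, so they split the pair of an experiment. With the block and a whole experiment left out, Dll3 (-0.16 to -0.02), Jag1 (0.02 to 0.10), Hes5 (-0.36 to -0.07) and Hes6 (-0.25 to -0.06) kept their sign. The ratios of each of these genes, by the brightest probe set, still differed in sign between experiments. Apart from leaving out arrays or experiments, no alternative turned a sign. The 2 members with 1 sign in all experiments became 4 with quantile normalization and 1 with the filter at the 50th percentile. They became 8 without experiment 3, an alternative added after seeing the data. That rule is looser, since only experiments 1 and 2 had to match, as they did for 55.6% of all genes. The 42 genes of the hairpin interaction became 0 without the replicate block, 2 without the filter and 10 with the mean of all probe sets; the cause was not tested. For experiment 3, the members apart went from 0 to 2 at 1.5-fold and to 1, Hes6, with GemKD arrays only. The count over all genes, 339, was 513 and 159 with a pseudocount of 1 and 64, and 1268 and 38 at 1.5-fold and 4-fold. Hes5 lies near the filter limit, where low signal also limits the precision. Among the 6 other Notch targets, 4 turned above 0 when 1 experiment was left out.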
